A study of Mus musculus with 12 samples.

Results

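The Notch pathway was followed here through 10 genes: the receptors Notch1, Notch2 and Notch3, the ligands Jag1, Jag2 and Dll1, the DNA-binding factor gene Rbpj, and the target genes Hes1, Hey1 and Heyl. The genes were taken by symbol from a table of 26271 loci, and all 10 were found, each in a locus that holds no other symbol. The cells were C2C12, an established line of mouse myoblasts that can fuse and differentiate into muscle fibres. They were grown for 24 h in DMEM that held 1 of 3 supplies of sugar: glucose at 25 mM (high glucose), glucose at 5 mM (low glucose) or galactose at 10 mM, with 4 libraries in each group and 12 in all. All 3 media also held 1 mM pyruvate, 10% fetal bovine serum and 1% penicillin/streptomycin. C2C12 is 1 cell line, and whether the 4 libraries of a group are separate cultures is not given in the labels, so the authors' p-values may measure only a technical spread. The design text of the series speaks of single muscle stem cells, whereas the labels of the 12 samples name C2C12 cells, and the labels were followed.

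Each value is in FPKM, fragments normalised to transcript length and library size, with 1 pooled value per group from the authors' Cuffdiff table. Libraries were not listed one by one, so no SD and no n can be set beside a level, depth is unknown, and no order of neighbouring levels can be checked against a spread. A gene was called higher or lower where Cuffdiff tested it and the authors' q was below 0.05. In 9204 of the 44006 tests q had its floor of 0.000239, and q is printed below mainly for genes that were not called or that lay above this floor. At least 1 FPKM was listed for 12827 to 13025 loci in each group. Of 8 myoblast markers, such as Myod1, Des and Cdh15, 8 stood above 1 FPKM in every group. The 8 endothelial markers summed to 0.101 FPKM in high glucose against 0.157 in low glucose and 0.247 in galactose, computed from the authors' deposited table. Of 7 leukocyte markers, 6 stayed below 0.1 FPKM in every group, and Cd68 could not be read because its locus also holds Eif4a1. Since RNA was taken from whole cultures, fewer cells of a type and less RNA per cell cannot be told apart.

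Notch receptors sit in the cell membrane and are bound by Jagged and Delta-like ligands on neighbouring cells. Binding leads to cleavage by an ADAM protease and by gamma-secretase, and the released intracellular part enters the nucleus, where it joins RBPJ and Mastermind proteins to switch on HES and HEY genes. These encode basic helix-loop-helix repressors. In skeletal muscle, Notch signalling is known for keeping muscle stem cells quiescent and for holding back MyoD and the entry into differentiation, and Notch genes are themselves among the known targets of the pathway.

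In the mm10 build, the receptor loci lie at chr2:26457700-26503822 (Notch1, minus strand), chr3:98013538-98150367 (Notch2, plus strand) and chr17:32120831-32166864 (Notch3, minus strand). The ligand loci lie at chr2:137081451-137116737 (Jag1), chr12:112907814-112930093 (Jag2) and chr17:15367354-15375823 (Dll1), all on the minus strand. Rbpj spans chr5:53555779-53657445 on the plus strand. The targets are shorter: Hes1 at chr16:30064481-30067798, plus strand, Hey1 at chr3:8663359-8667038, minus strand, and Heyl at chr4:123233556-123249870, plus strand. In GENCODE M21, an annotation of the same build, the first listed transcripts of the receptors have 34, 34 and 33 exons, against 4 in Hes1 and 5 each in Hey1 and Heyl. An antisense gene, Gm17276, overlaps 21013 bases of the Notch3 locus, and the long non-coding gene A930024N18Rik overlaps 824 bases of the Dll1 locus on the other strand. The genes 0610009E02Rik and Gm13568, also on the opposite strand, overlap the end of the Notch1 locus, by 1691 and 617 bases. The labels do not say whether reads were counted by strand, so reads of these genes cannot be told apart from those of the member. On the same strand, Gm42819 and Gm42820 overlap 5121 and 3063 bases of the Notch2 locus, and the microRNA genes Mir6996 and Mir6941 overlap 61 and 59 bases of Notch1 and Jag2. None of these overlapping genes has a locus of its own in the table, so their reads could be counted with the member. Rbpj has processed pseudogenes on chromosomes 4 and 6 (Rbpj-ps1 and Rbpj-ps3), so its value is uncertain where reads could be placed in either copy.

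The bases before the start sites are shown for Notch1, Notch3 and Jag1, the members with a RefSeq promoter entry that changed at least 2-fold in galactose. RefSeq entries (GRCm38.p6) were matched for 7 of the 10 members, in 9 windows of 250 bases before a start, and the windows printed here were cut where an exon of GENCODE M21 begins. The shown stretches are chr2:26503825-26504072, chr17:32166891-32167140 and chr2:137116645-137116770, all on the minus strand and read 5′ to 3′ along the gene. Capitals mark matches, on either strand, to 5 motifs: TGGGAA (the RBPJ core), CACGTG (an E-box bound by HEY proteins), CACGCG (the class C site of HES proteins), CACNAG (the N-box) and CAGCTG (an E-box preferred by MyoD).
Notch1: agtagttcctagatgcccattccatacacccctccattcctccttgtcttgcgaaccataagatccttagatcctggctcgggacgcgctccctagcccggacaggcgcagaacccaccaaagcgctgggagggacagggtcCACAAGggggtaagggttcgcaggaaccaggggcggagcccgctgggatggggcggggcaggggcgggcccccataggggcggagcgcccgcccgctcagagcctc
Notch3: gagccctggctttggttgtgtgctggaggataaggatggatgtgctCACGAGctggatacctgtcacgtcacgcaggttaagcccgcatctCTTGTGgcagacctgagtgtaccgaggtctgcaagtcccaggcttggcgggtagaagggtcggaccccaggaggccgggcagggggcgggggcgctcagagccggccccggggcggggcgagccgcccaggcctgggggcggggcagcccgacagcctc
Jag1: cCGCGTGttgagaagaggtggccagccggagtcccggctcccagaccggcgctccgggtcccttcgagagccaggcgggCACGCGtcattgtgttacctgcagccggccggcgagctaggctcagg
The Notch1 stretch held 1 N-box match and the Notch3 stretch 2, while the Jag1 stretch held 2 matches to CACGCG, 1 on each strand. None of the marked matches overlap each other. Over the whole windows, CACNAG was found in 3 of the 9 member windows and in 36.7% of all 32851 windows of the same length, and CACGCG in 3 of 9 and in 7.62%. TGGGAA was found in 2 of 9, both of them overlapping windows of Rbpj, and in 21.6% of all windows. CAGCTG was found in 2 of 9 windows and in 13% of all, and CACGTG in 0 of 9 and in 6.02%. The bases G and C made up 56% to 87.2% of the member windows, against a median of 52.4% over all windows. The shares of all windows are not matched for this difference. A match is only a description of these letters, and the windows cover neither distant sites nor the other start sites of a gene.

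In high glucose, Hes1 had the highest level of the 10 genes, followed by Jag2 and Notch2, and Heyl the lowest. Hes1 stood at 69.2 FPKM, above 87.8% of all loci with at least 1 FPKM, Jag2 at 36.6 and Notch2 at 28.0 FPKM in the authors' deposited table. Notch3, Notch1 and Hey1 were listed between 6.72 and 12.9 FPKM, Jag1, Rbpj and Dll1 between 1.83 and 2.56 FPKM, and Heyl at 0.454 FPKM. The first 3 places did not change between media. In galactose, Jag1 moved from place 7 to place 4, ahead of Notch3 and Notch1, and Hey1 from place 6 to place 9.

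**Figure D1:**
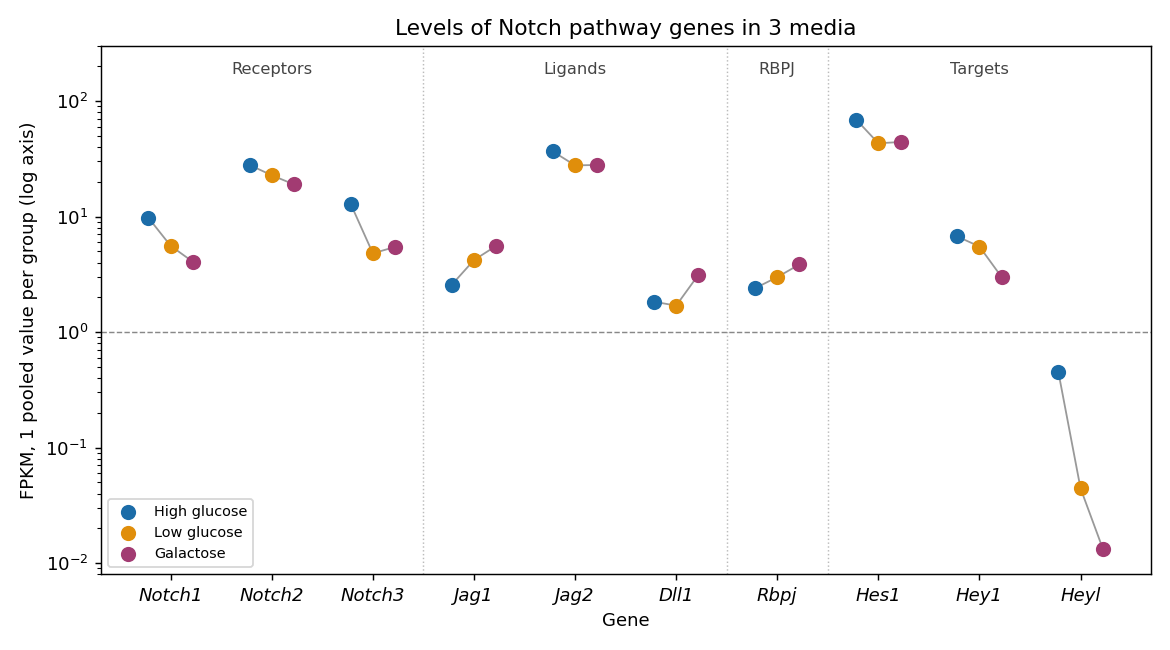
Level of each gene (y axis, FPKM on a log axis) in high glucose, low glucose and galactose, 1 pooled value per group with no error available; the dashed line is at 1 FPKM. The 3 receptors and 3 targets are highest in high glucose, whereas Jag1 and Rbpj rise from 2.56 to 5.58 and from 2.39 to 3.85 FPKM toward galactose.

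The first question was which Notch genes respond when less of the same sugar is given. All 3 receptors, all 3 targets and the ligand gene Jag2 were called lower in low glucose, Jag1 and Rbpj were called higher, and Dll1 was not called. That made 9 of 10 genes called, against 36.4% of the 14699 loci tested. By direction, 7 were lower and 2 higher, against 18.2% and 18.3% of all tested loci. Their median log2 fold change was -0.35, and that of all tested loci 0.01. Notch3 and Heyl were the 2 members called with at least a 2-fold change, which 3.31% of all tested loci reached. With 1 FPKM added to both values, the log2 fold change of Heyl was -0.48. The members were chosen with earlier results of these data known, so their shares, here and below, are description and no test.

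Replacing glucose with another sugar was the second question. Galactose was given at 10 mM and glucose at 25 mM, so the kind and the amount of sugar cannot be told apart here. The same 7 genes were called lower in galactose, and Jag1, Rbpj and Dll1 higher. All 10 were called, against 51.3% of 14812 tested loci, with 7 lower and 3 higher, against 24.8% and 26.5%. Their median log2 fold change was -0.60, and that of all tested loci 0.01. Notch1, Notch3, Jag1, Hey1 and Heyl, or 5 of 10, changed at least 2-fold, against 8.43% of all tested loci. With 1 FPKM added to both values, only Notch1 and Notch3 did, at log2 fold changes of -1.09 and -1.11. Those of Jag1, Hey1 and Heyl were then 0.88, -0.95 and -0.52. Both comparisons share the high glucose libraries, so they are not separate evidence for one direction. Since whole groups were pooled by the tool, no library could be left out of either.

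Low glucose and galactose were then set against each other. These media also differ in both the kind and the amount of sugar, at 5 and 10 mM. Notch1, Notch2 and Hey1 were called lower in galactose than in low glucose, and Notch3, Jag1, Dll1 and Rbpj higher. Jag2 and Hes1 were not called, and Heyl had too few reads for Cuffdiff to test it. This gave 7 of 9 tested genes called, against 33.3% of 14495 tested loci, with 3 lower and 4 higher, against 16% and 17.4%. None changed 2-fold, against 2.86% of all tested loci. The median log2 fold change of the 9 was 0.04, and that of all tested loci 0.01.

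**Figure D2:**
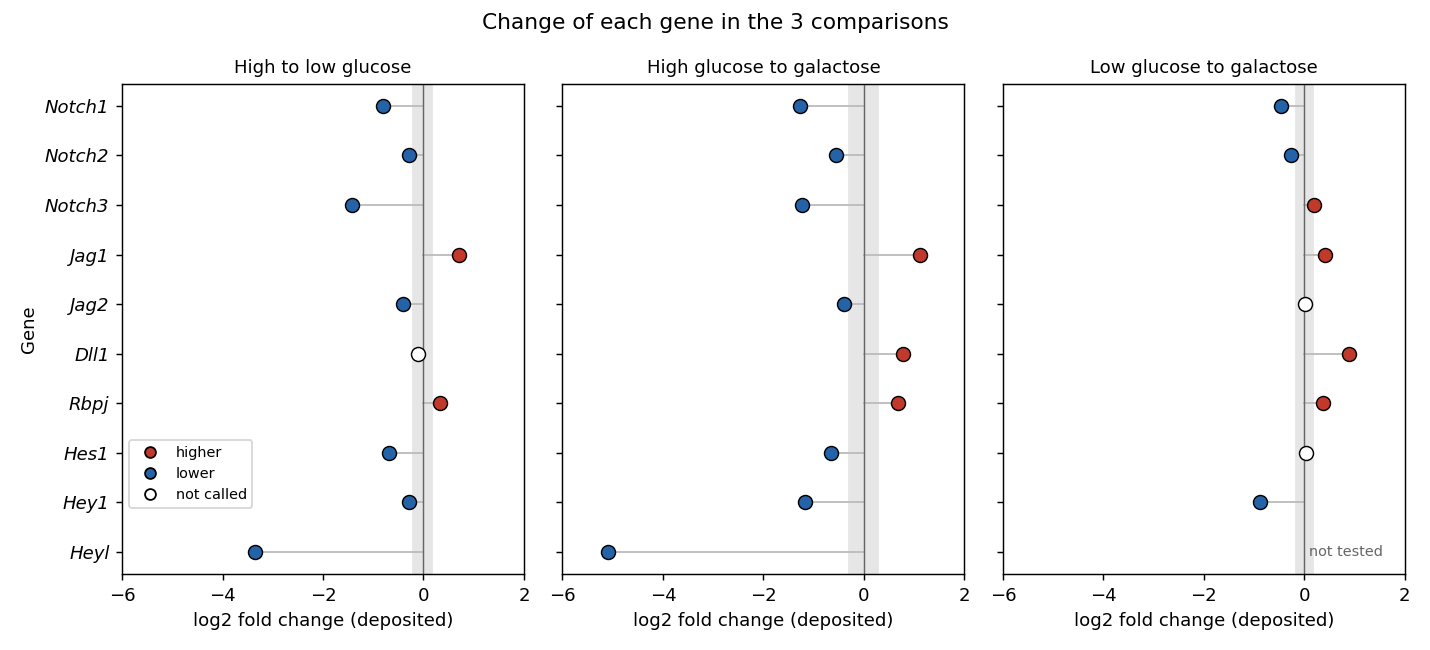
Log2 fold change of each gene (x axis, no unit) in the 3 comparisons from the authors' deposited table, coloured by the authors' call; the grey band runs from the lower to the upper quartile of all tested loci. Heyl lies farthest left, at -3.36 and -5.09, and was not tested from low glucose to galactose; Jag1 lies to the right in all 3 panels.

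Notch1 encodes a receptor known for its activity in muscle stem cells. Its level was 9.74 FPKM in high glucose against 5.57 in low glucose and 4.05 in galactose in the authors' deposited table. High glucose was the highest and galactose the lowest of the 3 values. The log2 fold changes were -0.81 to low glucose and -1.27 to galactose from high glucose, and -0.46 between low glucose and galactose, each called in the authors' deposited table. In galactose, Notch1 was thus at 41.6% of its level in high glucose.

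Notch2, a closely related receptor and the most abundant of the 3 here, moved in the same order by smaller amounts. It was listed at 28.0 FPKM in high glucose against 22.8 in low glucose and 19.0 in galactose in the authors' deposited table. Each step was called, with log2 fold changes from high glucose of -0.30 to low glucose and -0.56 to galactose, and of -0.26 between the latter media, in the authors' deposited table. Notch2 kept 67.8% of its level in galactose.

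Notch3 encodes a receptor that is also known from pericytes and vascular smooth muscle. It went from 12.9 FPKM in high glucose to 4.80 in low glucose and 5.46 in galactose in the authors' deposited table. Unlike Notch1 and Notch2, it was lowest in low glucose, at 37.2% of the level in high glucose. The log2 fold changes from high glucose were -1.43 to low glucose and -1.24 to galactose, and the small difference of 0.19 between low glucose and galactose was called at q = 0.0322 in the authors' deposited table. That last call ended at q below 0.01. The fall to low glucose lay at percentile 1.3 of the changes of all tested loci, counted from the lowest.

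Other markers shared with pericytes and smooth muscle were also called, though not all in the direction of Notch3. Of the 9 genes on that list, which holds Notch3 itself and Des, 5 were tested. In low glucose 4 of these were called lower, Notch3 among them, and 1, Cspg4, higher. In galactose the count was again 4 lower and 1 higher. Of all tested loci, 18.2% and 24.8% were called lower. From low glucose to galactose Notch3 was called higher, but Pdgfrb and Des were called lower and Acta2 and Cspg4 were not called. The summed level of the list was 1649 FPKM in high glucose against 1209 in low glucose and 1137 in galactose. Acta2 alone gave 1113, 844 and 824 FPKM of it, in the same order. The defining markers Rgs5, Kcnj8, Abcc9 and Myh11 stood below 0.1 FPKM in every group. The part of the other markers in the Notch3 result was not tested.

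Summed over the 3 receptors, the level fell from 50.6 FPKM in high glucose to 33.1 in low glucose and 28.5 in galactose, as computed from the authors' deposited table. Notch2 gave 55.2% of that sum in high glucose against 68.7% in low glucose and 66.6% in galactose. The share of Notch3 was 25.5%, 14.5% and 19.2%, and that of Notch1 19.3%, 16.8% and 14.2%. In low glucose and galactose, Notch2 therefore held a larger part of receptor RNA than in high glucose, though its own level was lower. These shares carry no error, because no value per library was listed.

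**Figure D3:**
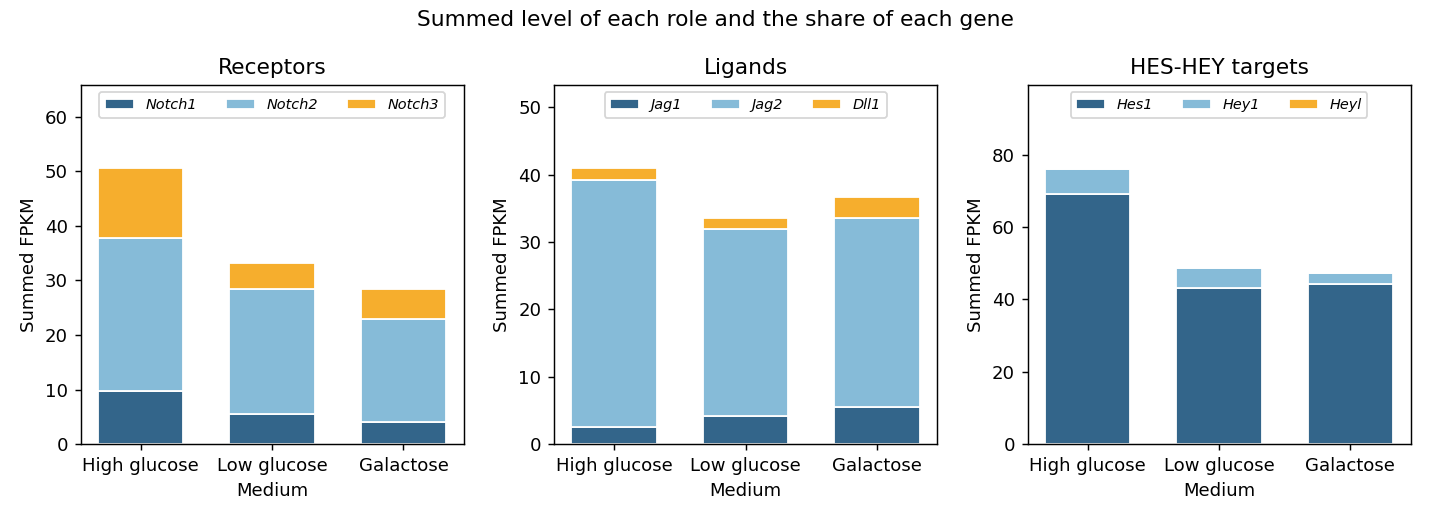
Summed FPKM of the receptors, the ligands and the HES-HEY targets in each medium (y axes start at 0), split by gene. The receptor sum falls from 50.6 to 28.5 FPKM and the target sum from 76.3 to 47.2 FPKM from high glucose to galactose, while the ligand sum goes from 41.0 to 36.7 FPKM; the Heyl part is too thin to see.

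Jag2, which encodes a Jagged ligand, was the main ligand gene in all media. It was listed at 36.6 FPKM in high glucose against 27.7 in low glucose and 28.0 in galactose in the authors' deposited table. The values in low glucose and galactose lay side by side, below that in high glucose. From high glucose the log2 fold changes were -0.40 and -0.39, both called, and the difference of 0.01 between low glucose and galactose was not called (q = 0.914) in the authors' deposited table.

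Jag1 encodes the other Jagged ligand and went the opposite way. It stood at 2.56 FPKM in high glucose against 4.20 in low glucose and 5.58 in galactose in the authors' deposited table. Each step was called higher, with log2 fold changes from high glucose of 0.71 to low glucose and 1.12 to galactose, and of 0.41 between the latter media, in the authors' deposited table. The rise to galactose was 2.18-fold, at percentile 96.8 of all tested loci. The ratio of Jag2 to Jag1 went from 14.3 in high glucose to 6.60 in low glucose and 5.01 in galactose.

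Dll1 encodes a Delta-like ligand that activated myoblasts are known to make. Its values were 1.83 FPKM in high glucose against 1.69 in low glucose and 3.13 in galactose in the authors' deposited table. Galactose stood apart from both glucose media. The change to low glucose, -0.11 on the log2 scale, was not called (q = 0.389), and the changes to galactose, 0.77 from high glucose and 0.89 from low glucose, were called in the authors' deposited table. Dll1 was the one member called in galactose and not in low glucose when each was set against high glucose, and the direct test between low glucose and galactose was called as well.

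The 3 ligands together summed to 41.0 FPKM in high glucose against 33.6 in low glucose and 36.7 in galactose, as computed from the authors' deposited table. The part of Jag2 went from 89.3% in high glucose to 82.5% in low glucose and 76.3% in galactose. Jag1 gave 6.25%, 12.5% and 15.2% of the sum, and Dll1 4.46%, 5.03% and 8.53%. Set against the receptors, ligand RNA was 0.811 of receptor RNA in high glucose against 1.01 in low glucose and 1.29 in galactose. Receptors and ligands thus did not move in parallel: the receptor sum was lowest in galactose, and the ligand sum in low glucose.

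Rbpj encodes the DNA-binding protein that all Notch receptors act through. Its level rose from 2.39 FPKM in high glucose to 2.99 in low glucose and 3.85 in galactose in the authors' deposited table. High glucose gave the lowest value and galactose the highest. The log2 fold changes were 0.32, 0.69 and, from low glucose to galactose, 0.37, all 3 called in the authors' deposited table.

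Hes1, the most widely expressed HES gene and a classical Notch target, was listed at 69.2 FPKM in high glucose against 43.1 in low glucose and 44.2 in galactose in the authors' deposited table. As with Jag2, the values in low glucose and galactose lay side by side, below high glucose. The log2 fold changes from high glucose were -0.68 and -0.65, both called, and the difference of 0.04 between low glucose and galactose was not called (q = 0.73) in the authors' deposited table. Hes1 kept 62.3% of its level in low glucose and 63.9% in galactose.

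Hey1 encodes a related repressor that pairs with HES proteins. It stood at 6.72 FPKM in high glucose against 5.50 in low glucose and 2.99 in galactose in the authors' deposited table. The value in galactose was the lowest, and low glucose lay nearer to high glucose. From high glucose its log2 fold changes were -0.29 to low glucose (q = 0.00382) and -1.17 to galactose, and the step between low glucose and galactose was -0.88, in the authors' deposited table. The last of these lay at percentile 2.4 of all tested loci, counted from the lowest.

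Heyl, another gene of the HEY group, was below 1 FPKM in every medium. It was listed at 0.454 FPKM in high glucose against 0.0443 in low glucose and 0.0133 in galactose in the authors' deposited table. High glucose was set apart from the other media, in which the gene was close to 0. The deposited log2 fold changes of -3.36 and -5.09 from high glucose were called (q = 0.000239 and q = 0.000659) in the authors' deposited table. With a pseudocount of 1 FPKM they shrank to -0.48 and -0.52, and with at least 1 FPKM asked of the larger value Heyl was not counted. The number of reads behind these values is unknown.

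Hes1 made up most of the summed level of the 3 targets in each medium, at 90.6% in high glucose against 88.6% in low glucose and 93.6% in galactose. The sum was 76.3 FPKM in high glucose against 48.6 in low glucose and 47.2 in galactose, as computed from the authors' deposited table. The ratio of Hes1 to Hey1 was 10.3 in high glucose against 7.83 in low glucose and 14.8 in galactose. Hes1 and Hey1 were both called lower in both media set against high glucose, but of the 2 only Hey1 was called between low glucose and galactose.

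Sorted by their course over the 3 media, the members fell into few patterns. Notch1, Notch2 and Hey1 were called lower at each step, Jag1 and Rbpj were called higher at each step. Jag2 and Hes1 were lower in low glucose with no further call in galactose. Notch3 was lowest in low glucose, Dll1 was called only in the comparisons with galactose, and Heyl was untested in the last comparison. Low glucose lay between the other media for 6 members, namely Notch1, Notch2, Jag1, Rbpj, Hey1 and Heyl. The patterns describe these pooled values and were sorted after the values were seen.

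**Figure D4:**
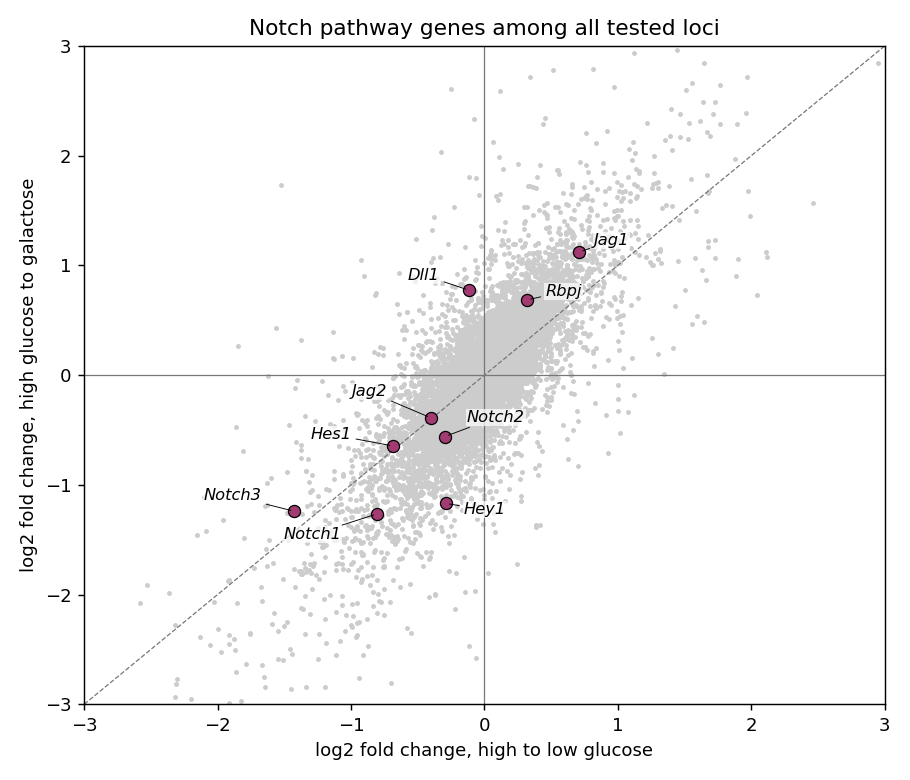
Log2 fold changes from high to low glucose (x axis) and from high glucose to galactose (y axis) for 13194 loci tested in both with at least 1 FPKM in any group (grey) and for 9 of the members (purple); Heyl and other loci beyond 3 are outside the frame, and the dashed line marks equal change. Both axes share the high glucose libraries, which can add to the slope of the grey cloud by an unknown amount. Jag2 and Hes1 lie on the line, Dll1 and Hey1 off it.

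The wider pathway was read from 6 lists with 77 symbols: other receptors and ligands, receptor glycosylation, proteolytic processing, ubiquitin and trafficking, nuclear co-factors, and other HES-HEY and feedback targets. They gave 76 loci, of which 62 were tested from high to low glucose. In that comparison 16 were called lower and 3 higher, 30.6% of those tested, and the median log2 fold change was -0.07. From high glucose to galactose, 20 were called lower and 9 higher of 63, or 46%, with a median of -0.04. From low glucose to galactose, 15 were lower and 12 higher of 61, or 44.3%, with a median of -0.02. The matching shares of all tested loci are 36.4%, 51.3% and 33.3%, given above for the 3 comparisons. By direction, all tested loci gave 18.2% lower and 18.3% higher in low glucose, and 24.8% and 26.5% in galactose, both set against high glucose. From low glucose to galactose they gave 16% and 17.4%. Against high glucose, a smaller share of the wider pathway than of all loci was thus called. Its calls there were more often lower than higher, unlike those of all loci. The lists were chosen with earlier results of these data known.

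Among other receptors and ligands, most had almost no RNA. Notch4, Dll3, Dll4, Dlk1 and Dner each stayed below 0.1 FPKM in every group. Dlk2, which encodes a non-canonical ligand related to Delta, was listed at 13.0 FPKM in both glucose media and 6.87 in galactose, a called log2 fold change of -0.92 from high glucose in the authors' deposited table. Mfap2, a microfibril gene whose product can bind Notch, fell from 0.582 to 0.134 FPKM in low glucose and was listed at 0.0390 FPKM in galactose, where it was not called (q = 0.0936) in the authors' deposited table. The list gave 2 tested loci in the comparisons with high glucose, with 1 called lower in each. Among all tested loci, 18.2% and 24.8% were called lower.

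Of the enzymes that put sugars on the receptors, 2 of 8 tested were called lower in low glucose and 4 of 8 in galactose, with none higher. All tested loci were called in either direction at 36.4% and 51.3%, and lower at 18.2% and 24.8%. Lfng encodes the fringe enzyme that extends O-fucose and shifts the response to ligands. It went from 26.4 FPKM in high glucose to 21.3 in low glucose and 17.6 in galactose, called at each step in the authors' deposited table. Gxylt2, a xylosyltransferase gene, went from 11.3 to 8.50 and 4.42 FPKM, also called at each step, in the authors' deposited table. Eogt and Gxylt1, for an O-GlcNAc transferase and another xylosyltransferase, were called lower in galactose, with log2 fold changes of -0.38 and -0.50 from high glucose in the authors' deposited table. Poglut1, the O-glucosyltransferase gene, was not called in any comparison, at 16.5 to 17.5 FPKM in the authors' deposited table. Rfng shares its locus with Dus1l, so its level could not be read alone.

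Of the proteolytic processing loci, 9 were tested. Set against high glucose, 1 was called lower in low glucose and 3 in galactose, with none higher, where 36.4% and 51.3% of all tested loci were called in either direction. From low glucose to galactose, 2 were called higher and 3 lower, where 33.3% of all tested loci were called. Adam10 and Adam17, the genes of the membrane proteases that shed the outer part of Notch, were called lower in galactose by log2 fold changes of -0.28 and -0.24 from high glucose in the authors' deposited table. A locus of the gamma-secretase subunit genes Aph1b and Aph1c, which are counted together, fell in galactose, from 2.78 FPKM to 1.74, in the authors' deposited table. Psen2, a presenilin gene, was called lower in low glucose, at 4.71 and 3.56 FPKM, and stood at 4.91 FPKM in galactose in the authors' deposited table. Ncstn, for the subunit nicastrin, was not called in any comparison, at 31.4 to 34.0 FPKM by the authors' deposited table.

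Genes of ligand endocytosis and receptor turnover were called in either direction, set against high glucose, at shares near those of all tested loci. There, 6 of 16 tested were called lower and 0 higher in low glucose, and 5 lower and 2 higher in galactose. All tested loci were called at 36.4% and 51.3% in either direction. By direction these were 18.2% lower and 18.3% higher in low glucose, and 24.8% and 26.5% in galactose. From low glucose to galactose, 5 of 15 were called higher and 2 lower, where 33.3% of all tested loci were called. Mib2, a ubiquitin ligase gene that acts on ligands, was called higher in galactose, from 11.9 FPKM in high glucose and 12.3 in low glucose to 25.4 FPKM in the authors' deposited table. Mib1, its better known relative, was not called in any comparison, at 13.5 to 15.5 FPKM in the authors' deposited table. Neurl1b, of the Neuralized group of ligases, went from 2.01 to 1.06 and 1.09 FPKM, called in both media set against high glucose in the authors' deposited table. Neurl3 and Dtx3l were also called lower in both, but at most 0.634 FPKM was listed for either. Nedd4, another ligase gene, was not called in any comparison, at 219 to 224 FPKM by the authors' deposited table.

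Of 23 nuclear co-factor genes, all tested, 3 rose and 3 fell in low glucose, and 6 rose and 5 fell in galactose. These 6 and 11 calls are against high glucose, where the shares of all tested loci were 36.4% and 51.3%. In neither medium did the list exceed that share, so the genes named next do not mark a response of the list. Between low glucose and galactose 3 rose and 5 fell, beside 33.3% of all tested loci. Tle2, of the Groucho group of co-repressors that HES proteins recruit, was listed at 10.6 FPKM in high glucose against 5.77 in low glucose and 4.34 in galactose, called at each step in the authors' deposited table. Maml2, a Mastermind co-activator gene, and Kat2b, a histone acetyltransferase gene, were called lower in galactose, with log2 fold changes of -0.83 and -0.62 from high glucose in the authors' deposited table. Bend6, whose product represses Notch-dependent transcription, was higher in galactose, with 10.9 against 19.7 FPKM (q = 0.00882) in the authors' deposited table. Snw1, a co-activator gene, was not called in any comparison, at 35.9 to 40.7 FPKM in the authors' deposited table.

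Among other HES-HEY and feedback genes, Hes2, Hes3, Hes5 and Helt stood below 0.1 FPKM in every group. Of the tested loci, 3 of 4 were called lower in low glucose, and 2 of 5 lower and 1 higher in galactose. All tested loci of the series were called in either direction at 36.4% and 51.3%, and lower at 18.2% and 24.8%. Hes6, whose product is known to oppose Hes1 and to favour myogenic differentiation, went from 49.4 FPKM in high glucose to 21.6 in low glucose and 19.8 in galactose in the authors' deposited table. Its log2 fold changes from high glucose were -1.20 and -1.32, both called, and the ratio of Hes1 to Hes6 went from 1.40 to 1.998 and 2.24. Nrarp, a feedback inhibitor gene switched on by Notch, was called lower in both, from 0.944 FPKM to 0.594 in low glucose and 0.583 in galactose in the authors' deposited table. Bhlhe40, a repressor gene that responds to many stresses, was higher in galactose, with 26.4 against 38.7 FPKM in the authors' deposited table. Bhlhe41 was called lower in low glucose, at 15.2 and 13.2 FPKM, and not in galactose, at 15.0 FPKM in the authors' deposited table.

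Genes described as Notch-RBPJ targets or effectors in quiescent muscle stem cells were mostly lower. Of 7 tested, 6 were called lower in low glucose and 5 in galactose, with medians of -0.65 and -0.89 on the log2 scale. Among all tested loci, 18.2% and 24.8% were called lower, with medians of 0.01 in both comparisons. Col6a2, a collagen VI gene, went from 8.90 to 4.60 and 2.60 FPKM, and Col5a2, a collagen V gene, from 158 to 119 and 85.0 FPKM in the authors' deposited table. Both were called at each step. Col6a1, the neighbouring collagen VI gene, and Pax7, the transcription factor gene of muscle stem cells, had log2 fold changes of -2.44 and -1.36 in galactose in the authors' deposited table. Spry1, an inhibitor of growth factor signalling, was called lower in low glucose and higher between low glucose and galactose, at 0.602, 0.328 and 0.781 FPKM, in order, in the authors' deposited table. Calcr was close to 0, at no more than 0.00153 FPKM in the authors' deposited table. Set against high glucose, Col5a1 was not called in low glucose (q = 0.317) and Col5a3 not in galactose (q = 0.098). Most of the tested genes of this list are collagen genes, and whether Notch acts on any of the list here was not tested.

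Myogenic genes were also read, since Notch signalling is known for holding back MyoD and the entry into differentiation. Whether Notch acts on each gene of this list was not tested. Of 7 tested, 3 were called lower and 0 higher in low glucose, and 4 lower and 1 higher in galactose, both set against high glucose. All tested loci were called in either direction at 36.4% and 51.3%, and lower at 18.2% and 24.8%. From low glucose to galactose, 3 were called lower and 2, Myog and Mef2d, higher, where 33.3% of all tested loci were called. Cdkn1c, a cell cycle inhibitor gene, went from 3.28 to 1.33 and 0.994 FPKM in the authors' deposited table. The regulator genes Myod1 and Myf5 were called lower in galactose, with log2 fold changes of -1.11 and -0.56 from high glucose in the authors' deposited table. The gene of myogenin, Myog, which acts in early differentiation, was lowest in low glucose, with 3.61 FPKM in high glucose against 1.42 in low glucose and 2.78 in galactose in the authors' deposited table. Its log2 fold changes were -1.35 to low glucose and -0.38 to galactose from high glucose, and 0.97 between low glucose and galactose, each called in the authors' deposited table. Mef2d was the 1 gene called higher in galactose than in high glucose, by 0.26 on the log2 scale, and is named because it made up the count. Cdkn1a and Mef2a were not called in any comparison, at 85.3 to 92.2 and 12.1 to 12.9 FPKM in the authors' deposited table. Myoblast markers were read as a separate list, which also holds Myod1 and Myf5, so the 2 lists are not independent. Of 8 tested, 5 were called lower in low glucose, and 7 lower and 1 higher in galactose. All tested loci were called lower at 18.2% and 24.8%. The summed level of the myoblast markers went from 982 FPKM in high glucose to 684 in low glucose and 594.5 in galactose. Des alone gave 456, 308 and 268 FPKM of it. The part of this sum in the changes of the Notch genes was not tested. Fibroblast markers also moved, with 4 of 4 tested called lower in low glucose and 3 of 4 in galactose. The shares called lower among all tested loci were 18.2% and 24.8%. The fibroblast counts hold Ly6a, which shares its locus with Ly6c1 and cannot be read alone, and that locus was called lower in both. Lum, Thy1 and Fap were listed at 0 in every group.

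**Figure D5:**
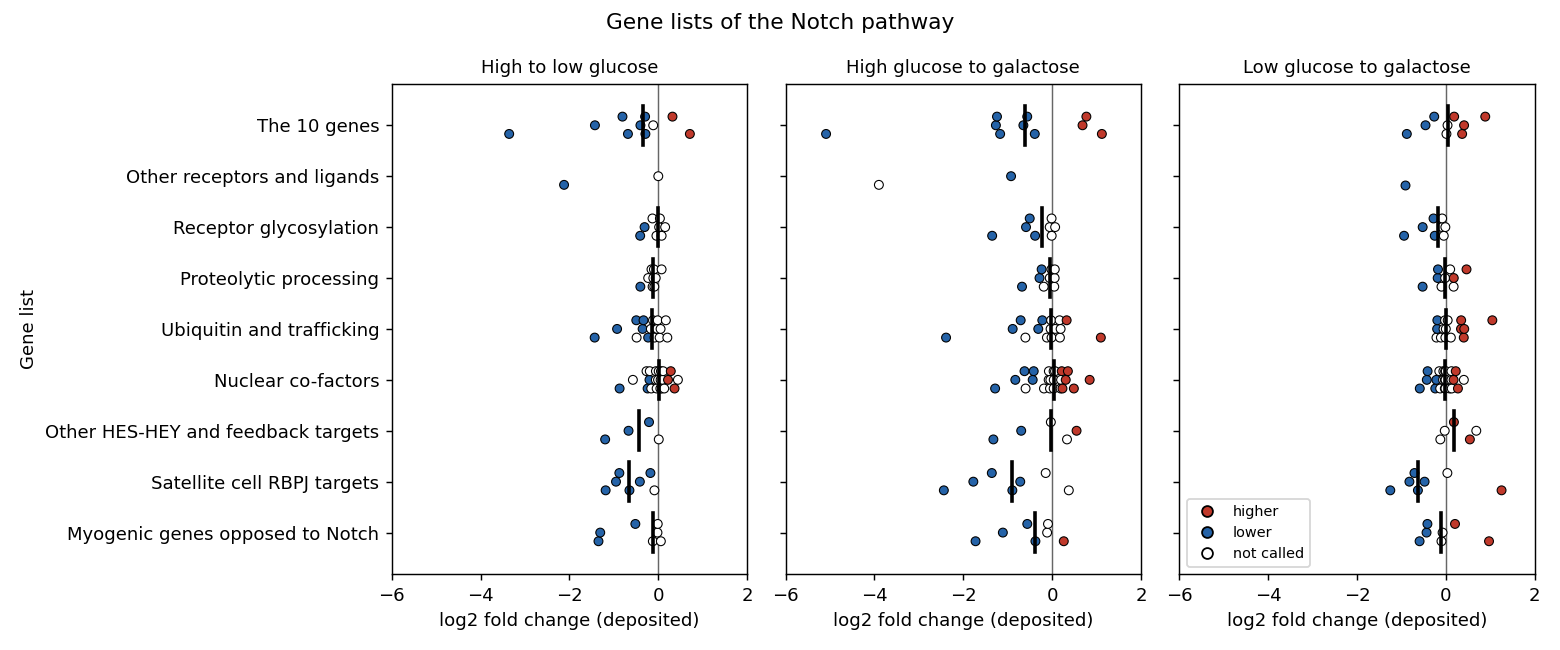
Log2 fold changes (x axes, no unit) of all tested loci of each list in the 3 comparisons, coloured by the authors' call, with a black bar at the median of lists with more than 2 tested loci. The bars of the proteolytic and nuclear lists lie near 0 in all panels, and that of the satellite cell RBPJ targets at -0.65, -0.89 and -0.63 from left to right.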

How the data were processed

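RNA of C2C12 cells (polyA selected, 12 libraries made with a NEBNext Ultra kit, as the labels state) had been aligned and quantified with TopHat2 2.0.10, Cufflinks 2.2.0 and Cuffdiff on mm10, per the submitters' processing notes; settings are not given in the sources used here. The authors deposited 1 Cuffdiff table with pooled FPKM per group, the log2 fold change without a pseudocount, a test score (not used), and p-values and q-values. Recomputing q over all 44006 tests gave the deposited values to within 5.3e-07.

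For each symbol the locus of highest summed FPKM was used, and 3 list symbols (Xxylt1, Rita1, Adgre1) through a RefSeq synonym. Starts count from 0 in the file and were raised by 1. The members and lists were chosen with earlier results of these data known. Named beside the 10 members were, per pathway list, up to 4 called genes with the largest change from high glucose to galactose and up to 2 uncalled genes of at least 5 FPKM in every group; others are named where a count rests on them, and 2 genes that the rule names are not reported here. The labels share replicate numbers, but pooled values allow no refit. Calling and adjustment were tested on simulated data. Depth is unknown. Alternatives were a q of 0.01, a 2-fold change, 1 FPKM, adjustment within a comparison, re-centring, a pseudocount of 1 FPKM, and no combined loci. The tables were computed in Python 3.11.15 with pandas 2.3.3 and numpy 2.4.6, and the figures drawn with matplotlib 3.10.9.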

Additional observations from a re-analysis of the deposited data

How the results depend on the processing

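The counts of called members, 9 for low against high glucose, 10 for galactose against high glucose and 7 for galactose against low glucose, stayed within 1.5 times under a q of 0.01, a minimum level of 1 FPKM, p-values adjusted separately per comparison, re-centring, a pseudocount of 1 FPKM and the removal of combined loci. The exception was a required change of at least 2-fold. It left 2, 5 and 0 members in the same order by the authors' Cuffdiff calls. Of all tested loci, 3.31%, 8.43% and 2.86% met that limit. Each of the 29 tested fold changes kept its direction under re-centring, the pseudocount and the removal of combined loci (87 of 87 values). Of these settings only re-centring could have reversed a direction. A pseudocount added to both values cannot do so. No member lies in a combined locus, so that removal could change neither a direction nor a count of members. Re-centring and the pseudocount leave the authors' q as it is, so the number of members called was fixed under them. No paired analysis was possible because the table holds 1 pooled value per group, and no replicate could be left out for the same reason. The depth behind all values is unknown, so its limit on low genes such as Heyl (0.454 FPKM in high glucose) could not be computed.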

Other observations

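The genes whose course over the 3 media was most like that of Heyl, Notch1 and Notch3, the members with the largest changes in galactose, were looked up among 7967 single-symbol loci tested in all comparisons with at least 5 FPKM in any group. Likeness was the distance between the pairs of log2 fold changes from high glucose, over 3 pooled values, which share high glucose. Nearest to Notch1 was Pstpip2, a gene of an actin-binding adaptor, at a distance of 0.00923 and with 13.7, 7.85 and 5.70 FPKM in high glucose, low glucose and galactose in the authors' deposited table. The collagen I gene Col1a2 and the proteoglycan gene Spock2 followed, at 0.0398 and 0.0431, and 8 loci lay within 0.1. No locus lay within 0.1 of Notch3. The nearest were Igfbp5, for a binding protein of insulin-like growth factors, at 0.103, Cebpa at 0.139 and Hes6, itself a gene of the HES group, at 0.244. Igfbp5 was listed at 224, 89.1 and 97.8 FPKM and Cebpa at 8.59, 3.48 and 3.80 FPKM, in order, in the authors' deposited table, with low glucose the lowest as in Notch3. Heyl had no near match among these loci. Sfrp2, which encodes a secreted Wnt modulator, came first at 0.898, and then Dapk2 and Ogn at 1.19 and 1.54. Sfrp2 was listed at 9.31, 1.55 and 0.376 FPKM, in order, in the authors' deposited table. Heyl itself was below 5 FPKM and untested from low glucose to galactose. Loci as low as Heyl were left out beforehand, so a near match among them was not looked for.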
